A study of Mus musculus with 6 samples.

Results

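The p53 pathway was examined through 10 genes of the 21936 in the deposited table, taken by name. They are Trp53, which encodes the transcription factor p53, and 9 genes that p53 is known to activate, namely Mdm2, Gadd45a, Trp53inp1, Aen, Plk2, Ccng1, Sesn1, Btg2 and Phlda3. No measured value entered the choice, but the list was drawn up with earlier results of these data known. In 3 libraries the PAM212 cells overexpressed miR-28-3p after lentiviral delivery of that mouse gene, and in the other 3, the controls, the treatment label says not treated while the titles read NC, which no label spells out. All were grown in DMEM with serum. PAM212 is labelled as a mouse keratinocyte line, although the design line of the series speaks of melanocytes. No sample label mentions an empty vector, so infection as such and the microRNA cannot be told apart here. Whether the libraries of a group come from separate cultures is not stated, so the p-values may measure technical spread only. The libraries held 14309898 to 16383374 counted reads each.

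As background, p53 is held at a low level in unstressed cells by Mdm2, a ubiquitin ligase that marks it for destruction, and Mdm2 is itself a target of p53, which closes a feedback loop. DNA damage and other stresses release p53, and its targets then arrest the cell cycle, aid repair, restrain growth signalling or start apoptosis. Much of this control acts on the protein, which was not measured. Several of the targets also answer to other factors, and Gadd45a and Sesn2 are known to be induced by the integrated stress response as well.

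The sequences that bear on these genes are the microRNA itself, the promoter windows that hold a match to the p53 element, and the few sites that could pair with the microRNA seed. The mature strand from RefSeq (GRCm38.p6, chromosome 16, 24827908 to 24827929, plus strand) is shown with its seed, bases 2 to 8, in capitals.

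mmu-miR-28a-3p: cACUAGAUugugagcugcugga

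The 7-mer that pairs with this seed, ATCTAGT, occurred in the 3' UTR of 0 of the 10 genes, and 6.72% of the 11679 tested genes with a 3' UTR hold it. The longest annotated 3' UTR of each gene was read on the transcript strand. Trp53inp1 alone of the 10 held the shorter match TCTAGT, which pairs with bases 2 to 7 and which 27.6% of those genes hold. It is shown in capitals with 10 bases on each side.

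Trp53inp1 3' UTR site: ttattttttcTCTAGTaaaattgtga

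A p53 element consists of a pair of decamer half-sites. Promoter windows from RefSeq, from 250 bases before to 50 after a start site, were searched for the contiguous 20-base element with both tetramer cores intact and at most 3 mismatches elsewhere; the element reads the same on both strands. A match was found in 0.572% of the 32851 windows, and in 0.625% of the 9437 tested genes that had a window. Among the 10 genes, 9 had a window and 2 of them, Trp53 and Aen, had a match. The known elements of Mdm2 and Gadd45a lie in introns, outside such windows. A window of each gene is printed 5′ to 3′ with the matched element in capitals. The element begins 75 bases before the start for Trp53 and 121 bases before one of the annotated starts for Aen. The same Aen element also lies in the window of another annotated start, not printed, where it begins 10 bases after that start. A match is a description of the letters and not a measured binding site.

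Trp53 promoter, GRCm38.p6 chr11:69580109-69580408, plus strand: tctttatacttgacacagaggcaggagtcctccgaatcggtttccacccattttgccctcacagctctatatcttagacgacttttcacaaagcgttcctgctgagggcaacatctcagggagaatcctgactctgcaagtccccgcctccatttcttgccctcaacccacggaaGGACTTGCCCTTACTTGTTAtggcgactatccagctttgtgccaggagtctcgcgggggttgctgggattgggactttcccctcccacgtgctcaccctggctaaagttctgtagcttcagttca

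Aen promoter, GRCm38.p6 chr7:78895808-78896107, plus strand: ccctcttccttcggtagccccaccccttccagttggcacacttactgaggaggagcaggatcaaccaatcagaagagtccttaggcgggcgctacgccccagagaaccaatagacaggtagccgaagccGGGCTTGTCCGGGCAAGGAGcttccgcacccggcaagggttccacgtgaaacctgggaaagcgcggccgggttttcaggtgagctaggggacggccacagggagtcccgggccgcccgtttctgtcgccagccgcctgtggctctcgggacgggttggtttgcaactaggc

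Among all 105 genes of the p53 lists described further on, 92 had a window and 9 a match. These include 4 well-known targets, whose elements are shown with 20 bases on each side so that they can be set against those of Trp53 and Aen. They are Cdkn1a, the cell cycle inhibitor p21, with 1 mismatch, Bbc3, the apoptosis gene Puma, with 3, Tigar, a regulator of sugar metabolism, with 3, and Rps27l, a ribosomal protein paralog, with 1.

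Cdkn1a: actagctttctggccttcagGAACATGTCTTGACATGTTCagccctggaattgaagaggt
Bbc3: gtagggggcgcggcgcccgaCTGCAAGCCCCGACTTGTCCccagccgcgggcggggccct
Tigar: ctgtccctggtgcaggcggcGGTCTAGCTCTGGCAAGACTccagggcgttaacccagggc
Rps27l: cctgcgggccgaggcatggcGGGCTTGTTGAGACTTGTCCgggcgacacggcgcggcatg

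All 10 genes passed the filter on low counts and all 10 passed the test (edgeR quasi-likelihood F test, Benjamini-Hochberg adjusted p under 0.05), which is what is meant by called; 4 were higher and 6 lower with overexpression. That count is close to the background, because 86.0% of the 11809 tested genes passed, 42.1% higher and 43.9% lower, so it says nothing particular about p53 genes. Sizes tell the genes apart better than calls. Of the 10, 2 were at least 2-fold higher (14.8% of tested genes) and 4 at least 2-fold lower (21.0% of tested genes). In every one of the 10 the overexpression libraries lay wholly above (4 genes) or wholly below (6 genes) the controls, which held for 42.2% and 43.8% of tested genes. In a bulk sample, fewer cells with a transcript and less of it per cell cannot be told apart.

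Trp53 (ENSMUSG00000059552, GRCm38 chromosome 11, 69580359 to 69591873, plus strand), the head of the pathway, fell 2.1-fold. It stood at 118, 112 and 116 CPM (read counts scaled to library size, with TMM factors) in the controls and at 57.4, 55.6 and 51.8 CPM with overexpression. The groups are far apart and the spread within each is small. The means were 115 ± 3.23 and 54.9 ± 2.86 CPM (SD, n = 3 each), a fall by 1.07 ± 0.05 on the log2 scale (SE from the F statistic, edgeR adjusted p = 8.41e-30). A change of this size or larger is common in these libraries, since 67.2% of tested genes changed less.

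Mdm2 (chromosome 10, 117688875 to 117710758, minus strand), the negative regulator and target of p53, rose modestly. Its levels were 64.8, 69.7 and 61.7 CPM in the controls against 90.5, 88.1 and 93 CPM with overexpression. Every overexpression library was above every control, with a log2 fold change of 0.47 ± 0.05 (1.38-fold; edgeR adjusted p = 2.08e-13). Only 35% of tested genes changed less than this, and the call was lost against a 1.5-fold minimum. The transcript of the inhibitor thus moved opposite to that of the protein it inhibits. Per length, the ratio of Mdm2 to Trp53 in FPKM (read fragments scaled by gene length and library size) was 0.451 ± 0.0383 in the controls and 1.31 ± 0.0991 with overexpression (SD, n = 3), 2.91 times as high. This ratio does not depend on how libraries are scaled to each other. The change in order was seen in each library, with ratios of 0.435, 0.495 and 0.424 against 1.25, 1.26 and 1.43.

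Aen and Plk2 rose most. Aen (chromosome 7, 78895854 to 78911209, plus strand), a nuclease that acts in p53-dependent apoptosis, went from 12.3, 12.5 and 11.8 CPM to 67.4, 68.4 and 71.4 CPM. The values within a group lie within a few CPM of each other. This is a 5.66-fold rise (log2 fold change 2.50 ± 0.07, edgeR adjusted p = 1.66e-39), and 93% of tested genes changed less. Plk2 (chromosome 13, 110395046 to 110400844, plus strand), a polo-like kinase linked to centriole duplication and the stress response, went from 43.3, 38.6 and 39.9 CPM to 118, 114 and 118 CPM. It rose 2.87-fold (1.52 ± 0.05 on the log2 scale, edgeR adjusted p = 2.48e-36).

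Ccng1 (chromosome 11, 40748552 to 40755311, minus strand) encodes cyclin G1, which acts with a phosphatase on Mdm2. It had 37.6, 43.2 and 43.1 CPM in the controls against 65.6, 64.9 and 70.4 CPM with overexpression. The 3 overexpression libraries were again above all controls, a rise of 1.62-fold (log2 fold change 0.70 ± 0.06, edgeR adjusted p = 6.36e-17). Together with Mdm2, Aen and Plk2 it makes up the rising side of the set, and the 4 directions held under each of the 15 alternatives run.

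Gadd45a and Trp53inp1 fell most. Gadd45a (chromosome 6, 67035096 to 67037457, minus strand), a stress sensor that binds PCNA and activates kinase signalling, went from 119, 116 and 110 CPM to 5.7, 5.08 and 5.87 CPM. That is 5381 counts over the controls against 249 over the overexpression libraries. It fell 20.7-fold (log2 fold change -4.37 ± 0.08, edgeR adjusted p = 4.52e-51), and 98.3% of tested genes changed less. In the GENCODE M21 annotation 19.1% of its exonic bases are shared with E230016M11Rik on the opposite strand, which the table does not list, and the sources used here do not give the strand setting of the counting. Trp53inp1 (chromosome 4, 11156431 to 11174379, plus strand), a stress-induced protein that promotes autophagy and p53 activity, went from 47.2, 53.3 and 47.8 CPM to 3.68, 4.62 and 3.66 CPM. No overexpression library exceeded 4.62 CPM and no control was below 47.2 CPM. It fell 12.4-fold (log2 fold change -3.63 ± 0.10, edgeR adjusted p = 1.19e-39), with 97% of tested genes changing less. On the log2(FPKM + 1) scale in limma the value was -2.48, since its FPKM with overexpression lies below the pseudocount of 1.

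Phlda3, Sesn1 and Btg2 fell less. Phlda3 (chromosome 1, 135766119 to 135769136, plus strand), which competes with Akt for membrane lipids and so restrains growth signalling, went from 47.2, 49 and 52.3 CPM to 23.6, 20.4 and 19.1 CPM. It fell 2.36-fold (log2 fold change -1.24 ± 0.07, edgeR adjusted p = 1.43e-23). Its gene model is the shortest of the 10, at 1559 bases, and once the trend of log counts on gene length in each library was removed the fall shrank to -0.64, still called.

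Sesn1 (chromosome 10, 41809935 to 41908424, plus strand), a sestrin that restrains mTORC1, went from 23.4, 20.2 and 19.2 CPM to 15.6, 16.8 and 15.7 CPM. The groups do not overlap, but the lowest control lies nearer to the overexpression libraries than to the highest control. The log2 fold change was -0.38 ± 0.09 (edgeR adjusted p = 0.0002), and the call was lost against a 1.5-fold minimum.

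Btg2 (chromosome 1, 134075170 to 134079120, minus strand), an antiproliferative protein that recruits deadenylases, had the lowest FPKM of the 10 in the controls and the highest adjusted p. It had 74, 62 and 60 counts in the controls against 32, 56 and 34 with overexpression, or 4.65, 4.09 and 3.81 against 2.31, 3.7 and 2.15 CPM. Overexpression replicate 2 lies just under the lowest control. The log2 fold change was -0.62 ± 0.23 (edgeR adjusted p = 0.00957). The call was lost without overexpression replicate 3 (adjusted p = 0.074), once the length trend was removed (0.251) and against a 1.5-fold minimum (0.359).

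**Figure D1:**
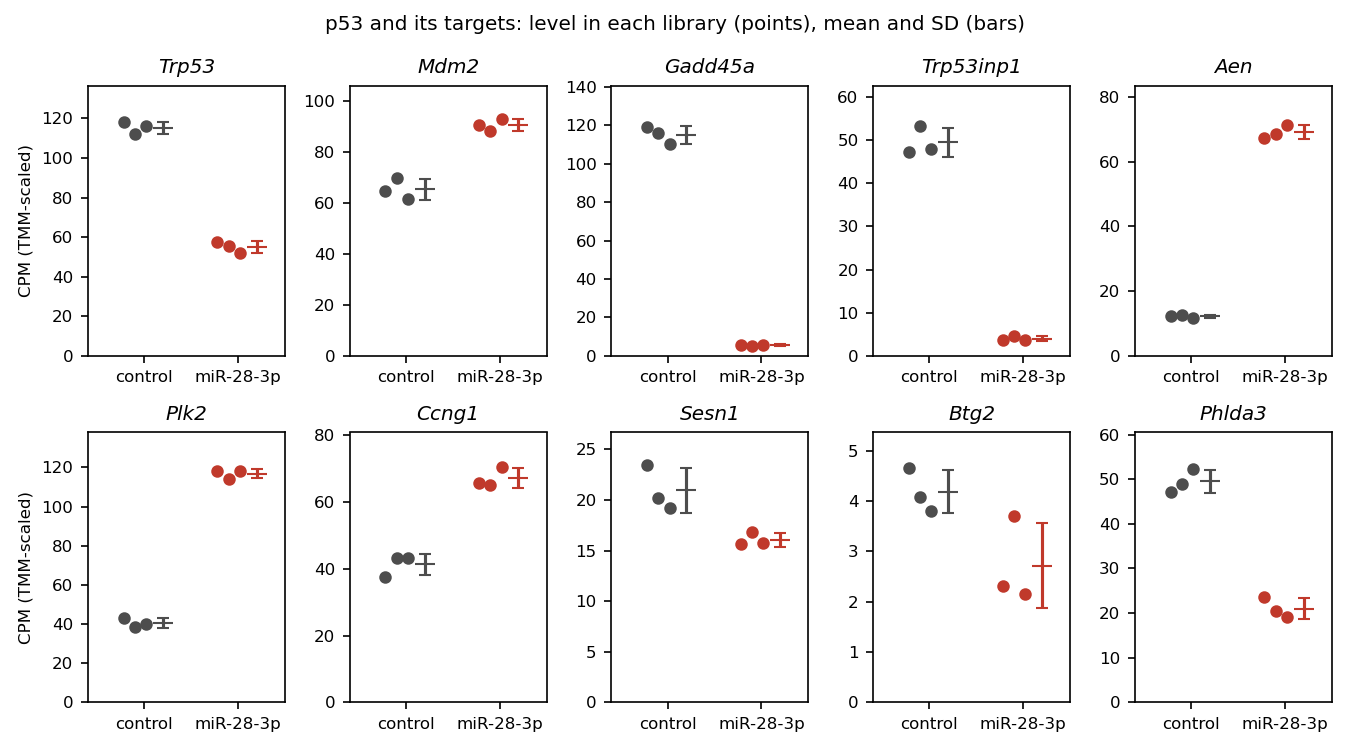
Level of each gene in TMM-scaled CPM on a linear axis from 0, with 1 point per library (3 control, 3 miR-28-3p overexpression) and the mean ± SD beside the points. Trp53 sits between 51.8 and 57.4 CPM with overexpression against 112 to 118 in the controls, and Btg2 is the gene whose groups come closest.

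The authors' deposited table, which names its groups only A and B, gives for B over A the same 10 directions, with log2 fold changes from -4.36 for Gadd45a to 2.51 for Aen and an adjusted p of 0.0327 for Btg2, its largest among the 10. In that table Trp53 stands at -1.06 and Mdm2 at 0.48. The series holds no other libraries, and DESeq2 run here gave the same -4.36 and 2.51, so this likeness is not an independent check. That B is the overexpression group is read only from these directions.

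Per length, the order of the 10 genes was largely rearranged. In the controls the order by FPKM ran from Gadd45a (67.2 ± 2.89, SD, n = 3) through Phlda3 (32.8 ± 1.66), Trp53 (29.5 ± 0.875), Mdm2 (13.3 ± 0.814), Ccng1 (12.1 ± 0.926), Plk2 (9.34 ± 0.583), Trp53inp1 (7.88 ± 0.528), Sesn1 (5.43 ± 0.572) and Aen (2.17 ± 0.0621) to Btg2 (1.57 ± 0.164). Mdm2 and Ccng1 were the one neighbouring pair there whose library ranges overlapped. With overexpression Plk2 came first (25.1 ± 0.435 FPKM), then Ccng1 (18.5 ± 0.8) and Mdm2 (17.2 ± 0.454). Trp53 (13.1 ± 0.705), Phlda3 (13.1 ± 1.46) and Aen (11.5 ± 0.327) followed, and the ranges of Phlda3 overlapped those of both neighbours. Sesn1 (3.9 ± 0.152), Gadd45a (3.05 ± 0.226), Btg2 (0.959 ± 0.301) and Trp53inp1 (0.596 ± 0.0821) closed the order. Gadd45a went from the first place to the eighth and Plk2 from the sixth to the first. The FPKM of the 10 genes summed to 181 ± 2.32 in the controls and 107 ± 1.63 with overexpression. Most of that difference was Gadd45a, at 67.2 and 3.05 FPKM. In CPM, which is not divided by length, the 10 genes summed to 505 to 518 in the controls and 442 to 451 with overexpression.

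**Figure D2:**
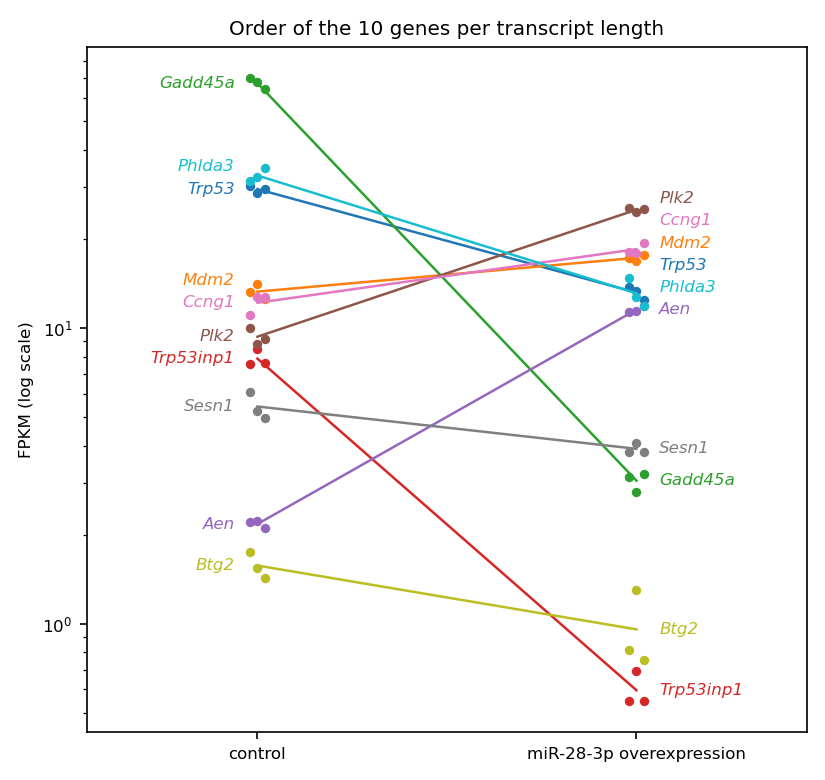
FPKM of the 10 genes on a log axis, 3 points per group and a line between the group means. The lines cross: Gadd45a drops from 67.2 to 3.05 FPKM while Plk2 climbs from 9.34 to 25.1 and Aen from 2.17 to 11.5.

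Each target was also set against Trp53, which divides all of them by the same value in a library. Per length, the ratio of Aen to Trp53 was 11.9 times as high with overexpression (0.0737 ± 0.00342 in the controls, 0.879 ± 0.0734 with overexpression, SD, n = 3). The ratio of Plk2 was 6.04 times and that of Ccng1 3.42 times as high. Sesn1, which fell less than Trp53, had a ratio of 0.184 ± 0.0159 in the controls and 0.297 ± 0.0176 with overexpression. Phlda3 kept a ratio near 1, at 1.11 ± 0.0711 and 0.993 ± 0.0661, and its library values overlapped between the groups. For Gadd45a the ratio went from 2.28 ± 0.0998 to 0.232 ± 0.0256. These ratios share the Trp53 value of each library and are not independent of each other.

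The 10 genes were read under other ways of processing as well. Against a 1.5-fold minimum 3 were higher and 4 lower, where 50.4% of tested genes passed, 23.4% higher and 27% lower. With the length trend removed 4 were higher and 5 lower, beside 42.8% and 42.5% of tested genes. Upper quartile scaling kept 4 higher and 6 lower, beside 33.5% and 53.2% of tested genes, and it shifted the median of all tested genes by -0.23. Mdm2 stood at 0.24 and Trp53 at -1.30 under that scaling.

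**Figure D3:**
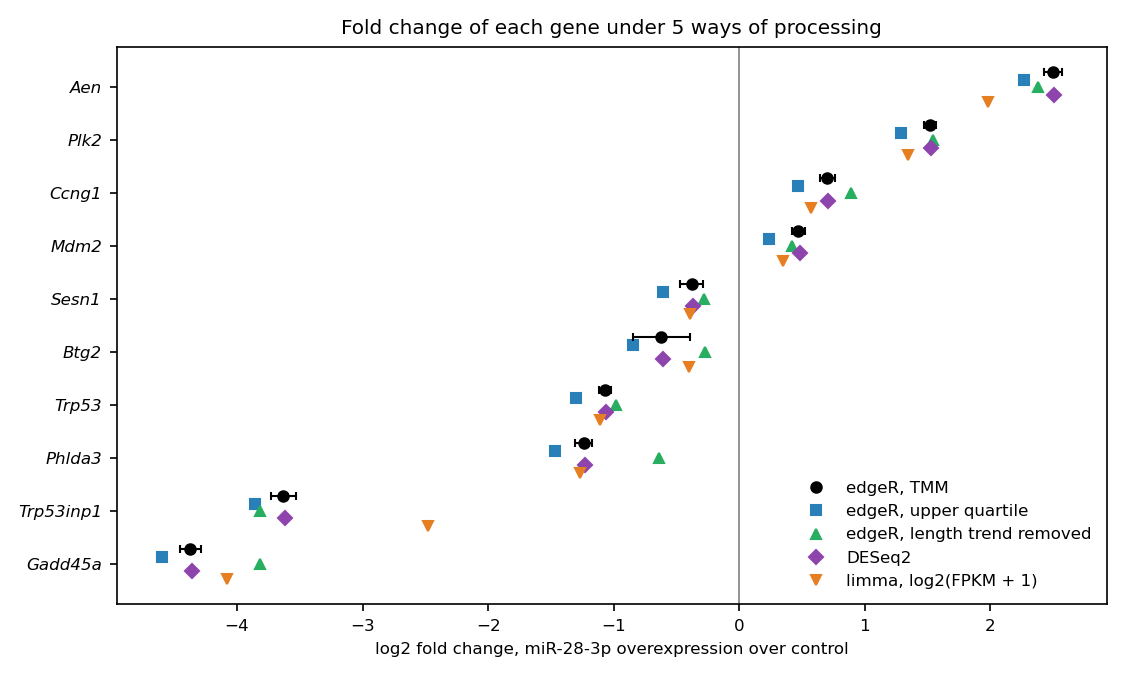
Log2 fold change of each gene under 5 ways of processing, with the SE from the F statistic drawn on the edgeR TMM value. Each gene keeps its side of 0 under all 5, and the largest shifts are those of Trp53inp1 in limma on log2(FPKM + 1), at -2.48, and of Phlda3 with the length trend removed, at -0.64.

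Most of the 10 belong to small families of paralogs, and the share of a gene within its family is another measure that library scaling does not move. With 3 libraries against 3 an exact permutation test cannot go below p = 0.10, so the shares are given as values. Gadd45a made up 69.7 ± 0.613% of the summed FPKM of Gadd45a, Gadd45b and Gadd45g in the controls and 11 ± 0.604% with overexpression (SD, n = 3). Gadd45b rose from 17.8 ± 1.84 to 32.8 ± 1.54 CPM (edgeR adjusted p = 7.34e-15) and Gadd45g fell from 20.1 ± 1.3 to 5.76 ± 0.435 CPM (2.61e-21). The 3 stress sensors of this family thus did not move together.

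Trp53inp1 made up 60.6 ± 1.72% of its pair with Trp53inp2 in the controls and 23.1 ± 0.923% with overexpression. Phlda3 went from 44.5 ± 2.11% to 29.7 ± 3.02% of the Phlda family. In both families every overexpression library lay below every control.

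For 4 genes the share rose. Ccng1 was 35.9 ± 2.54% of the cyclin G pair in the controls and 69.4 ± 0.645% with overexpression, as Ccng2, the FOXO-responsive cyclin G2, fell from 114 ± 3.91 to 45.8 ± 0.886 CPM (edgeR adjusted p = 6.86e-34). Sesn1 rose from 15.2 ± 1.19% to 31.4 ± 1.63% of the sestrins although it fell itself, as Sesn2 fell from 27.1 ± 2.01 to 7.7 ± 1.16 CPM (1.28e-23) and Sesn3 from 328 ± 1.2 to 101 ± 0.233 CPM (8.58e-50). Mdm2 went from 65 ± 1.09% to 71.4 ± 0.799% of its pair with Mdm4, a p53 inhibitor without ligase activity of its own. Mdm4 stood at 102 ± 1.38 and 105 ± 2.63 CPM and was not called (edgeR adjusted p = 0.324); its sign depends on the scaling, and it was called lower at -0.19 with upper quartile scaling and at -0.53 with the length trend removed. Trp53 made up 99.5 ± 0.0737% of the FPKM of the p53 family in the controls and 99.9 ± 0.165% with overexpression.

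In the remaining families the library shares overlapped. Plk2 was 20.7 ± 1.32% and 21.1 ± 0.519% of the polo-like kinases, and Btg2 1.25 ± 0.122% and 1.15 ± 0.336% of the Btg genes. The large relative of Btg2, Btg1, fell from 564 ± 16.5 to 352 ± 5.8 CPM (edgeR adjusted p = 6.71e-34), and Plk3 rose from 23.8 ± 1.13 to 35.1 ± 3.37 CPM (1.18e-09).

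**Figure D4:**
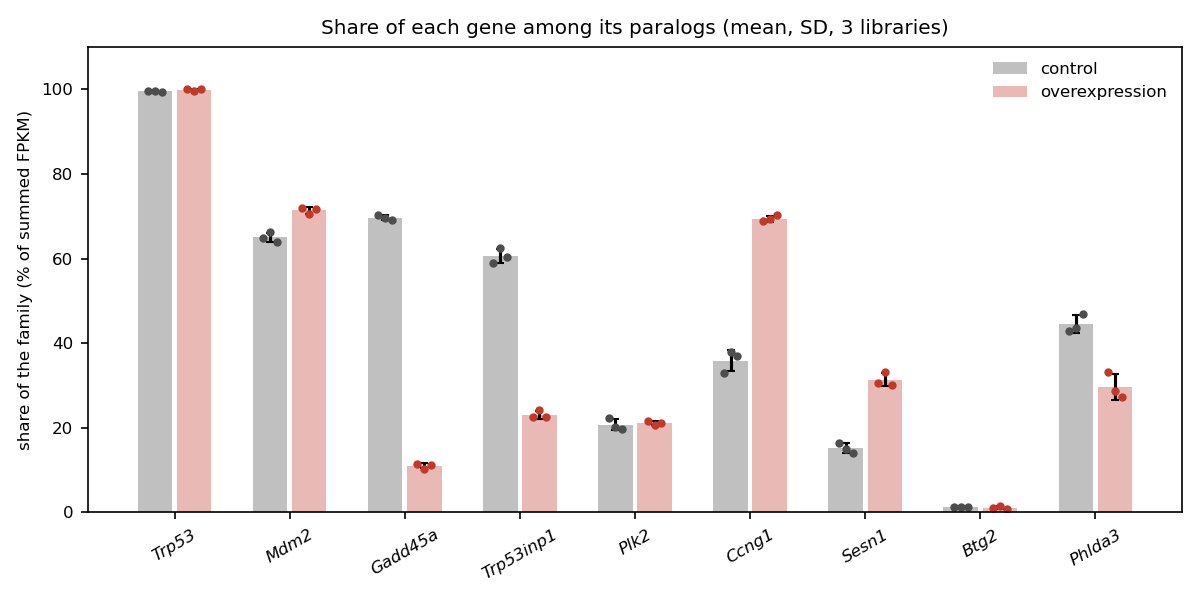
Share of each gene in the summed FPKM of its family, in percent, with bars for the mean, error bars for the SD and points for the 3 libraries of each group. Gadd45a drops from 69.7% to 11%, Ccng1 climbs from 35.9% to 69.4%, and the shares of Plk2 and Btg2 overlap between groups.

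The relatives of p53 itself were scarce. Trp63, the p63 gene that marks basal keratinocytes, had 14, 17 and 22 counts in the controls against 0, 5 and 0 with overexpression. All its counts with overexpression came from replicate 2. Its log2 fold change was -3.25 ± 0.66 (edgeR adjusted p = 9.81e-06), -7.12 without that library, and -0.17 on the log2(FPKM + 1) scale. Trp73 had 2 counts in control replicate 1 and 0 in the other libraries.

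The wider pathway was read through 6 lists of 12 to 27 genes, 95 distinct genes besides the 10, of which 87 were tested. There 44 were higher, 34 lower and 9 not called, beside backgrounds of 42.1% higher and 43.9% lower, and the median log2 fold change was 0.16 against -0.03 over all tested genes. The 44 include all 12 genes of the list that p53 represses, described last. Neither the count nor the median is therefore one of activated targets alone. Some genes stand in more than one list, and the paralogs named above form the first. Among the called genes, Bax, Ei24, Rps27l, Phlda2, Trp53bp1, Cop1, Triap1 and Gpx1 changed sign with upper quartile scaling or with the length trend removed. Kat5, called higher at 0.23, also went to -0.0 with upper quartile scaling.

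Of 18 tested regulators of p53, 11 were called higher and 3 lower, beside 42.1% and 43.9% of all tested genes. Their median log2 fold change was 0.30 (0.07 with upper quartile scaling). Of the 11, Trp53bp1 and Cop1 were called lower with the length trend removed, at -0.19 and -0.42. Atm, the kinase that signals DNA breaks to p53, rose from 9.8 ± 1.78 to 49.4 ± 1.63 CPM (edgeR adjusted p = 2.42e-33). Those that fell were Rchy1, a ubiquitin ligase for p53, and Rpl5 and Rpl11, the ribosomal proteins that can bind and block Mdm2. Rpl5 fell from 2570 ± 32.9 to 1260 ± 7.72 CPM (1.62e-49) and Rpl11 from 921 ± 14.5 to 545 ± 14 CPM (2.38e-38). Ribosomal protein genes as a whole took 8.99% to 9.15% of the counts in the controls against 4.22% to 4.33% with overexpression, and the part of that shift in these values was not tested. Mdm4, Ppm1d, Chek2 and Ppp1r13l were not called. Ppm1d, a phosphatase that switches p53 signalling off and is itself a p53 target, had 18.6 ± 0.0444 and 19.2 ± 1.24 CPM (adjusted p = 0.616), and Chek2, a checkpoint kinase, 16.5 ± 1.46 and 18.4 ± 1.72 CPM (0.116). Both were called higher once the length trend was removed, at 0.31 and 0.45, while upper quartile scaling gave -0.18 and -0.07, not called. Chek2 was also called higher without control replicate 1 (adjusted p = 0.0469) and without overexpression replicate 1 (0.0358). Cdkn2a, whose Arf product blocks Mdm2, had 0 counts in all 6 libraries, where 3 counts in a library equal 0.188 to 0.216 CPM.

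Arrest and repair targets divided almost evenly, 6 of 13 tested higher and 7 lower, beside 42.1% and 43.9% of all tested genes. Their median was -0.38, and 0.16 with the length trend removed. Cdkn1a, the classical p53 target and inhibitor of cyclin-dependent kinases, had 35.2, 30.9 and 32.3 CPM in the controls against 16.4, 17.6 and 17.6 CPM with overexpression. Each overexpression library was below each control (log2 fold change -0.93 ± 0.08, edgeR adjusted p = 6.55e-16). Sfn, the 14-3-3 sigma gene that holds cells in G2 and is also an epithelial marker, rose from 33.1 ± 1.74 to 87.9 ± 3.73 CPM (5.32e-32). Rrm2b, the p53-inducible ribonucleotide reductase subunit, rose from 21.6 ± 2.53 to 33 ± 2.71 CPM (8.39e-10). Ddb2, a sensor of ultraviolet damage, was called lower at -0.38, but at -0.03 with the length trend removed it was not.

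Apoptosis targets gave 4 higher and 7 lower of 13 tested, beside 42.1% and 43.9% of all tested genes. Their median was -0.26, and 0.09 with the length trend removed. The death receptor gene Fas fell from 32.1 ± 3.02 to 4.24 ± 0.921 CPM (edgeR adjusted p = 1.5e-31). Bbc3, which encodes the BH3-only protein Puma, fell from 28.1 ± 2.47 to 6.02 ± 0.674 CPM (3.66e-27). Those that rose were Tnfrsf10b, Apaf1, Ei24 and Zmat3, of which Ei24, at 0.13, turned to -0.10 with upper quartile scaling. Zmat3, an RNA-binding protein gene, rose from 25.3 ± 1.13 to 46.7 ± 2.2 CPM (2.66e-18). Bax was called lower at -0.26, yet its libraries overlapped, it was not called without overexpression replicate 1 (adjusted p = 0.0958), and it was called higher at 0.34 with the length trend removed. Perp, a p53 target that also builds desmosomes, was called lower at -0.54 from 220 ± 4.71 to 152 ± 4.01 CPM but stood at -0.02 with that trend removed. Pmaip1, which encodes Noxa, had 0 counts in all libraries, and Eda2r 1 count in all.

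Among metabolic and other targets 7 of 25 tested rose and 13 fell (median -0.20), beside 42.1% and 43.9% of all tested genes. The median was -0.43 with the length trend removed. The largest changes in this list were falls, and Sesn2 and Sesn3, given above with their family, also fell. Tigar, whose element is printed above, rose from 5.06 ± 0.452 to 18 ± 0.375 CPM (edgeR adjusted p = 8.97e-21). Gdf15, a secreted stress factor, had 8 counts in the controls against 2 with overexpression and was not tested. Of the 8 tested genes with a promoter match, 5 were higher and 3, Trp53, Bbc3 and Cdkn1a, were lower, beside 42.1% and 43.9% of all tested genes. One of the 5, Rps27l, had overlapping libraries, and its log2 fold change of 0.13 turned to -0.10 with upper quartile scaling.

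The list of genes that p53 represses through the DREAM complex stood apart in direction. All 12 were higher, with a median log2 fold change of 1.59, beside 42.1% of all tested genes. It holds mitotic and replication genes that any shift in cycling cells also moves, and cell cycle genes were known to be higher in these libraries when the list was drawn up.

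**Figure D5:**
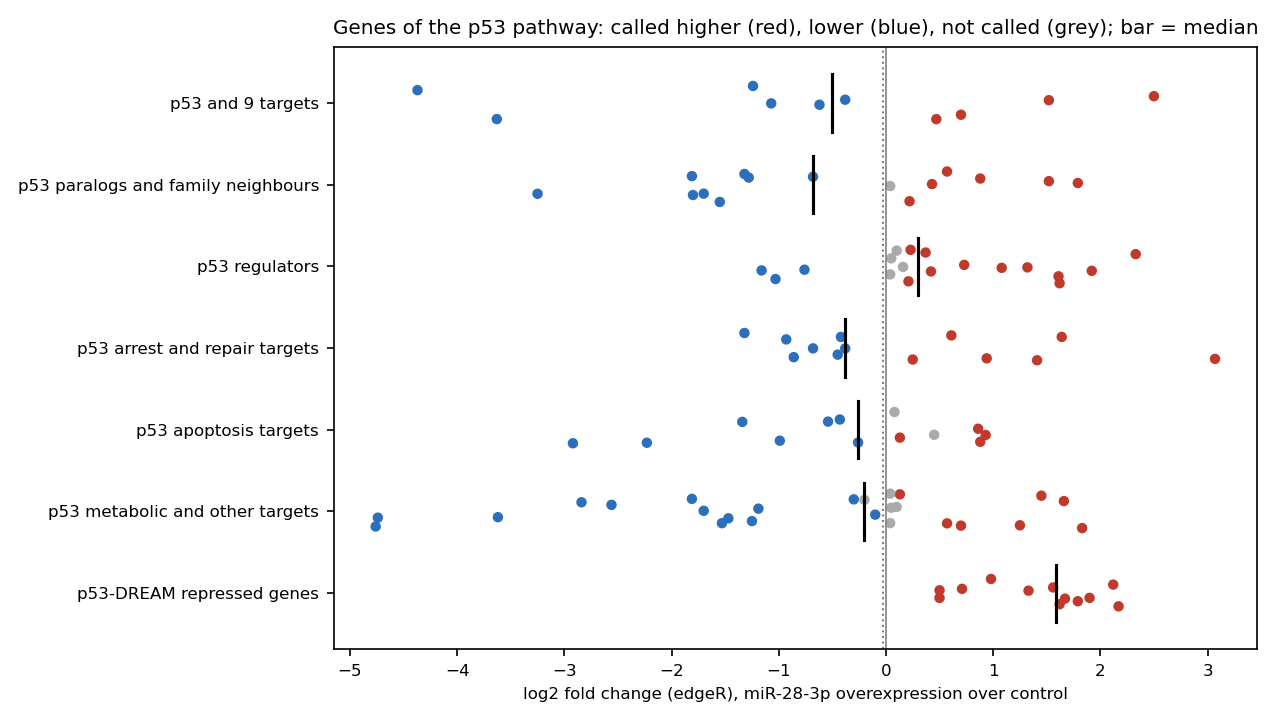
edgeR log2 fold change of each tested gene in the 7 p53 lists, coloured by call, with a black bar at each list's median and a dotted line at the median of all tested genes (-0.03). The target lists spread to both sides of 0, and the 12 DREAM genes all lie above it, around a median of 1.59.

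By the mean absolute difference of centred log2 CPM over the 6 libraries, the genes with the pattern most like that of Trp53 were Cacnb3 (0.0168), Adprh (0.0186) and Nadsyn1 (0.021). Cacnb3 went from a mean of 109 to 52.8 CPM. With 2 groups of 3, such likeness mostly reflects an equal fold change.

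Some measures of the libraries moved with the groups beside all of these values. The mean gene length behind a counted read was 5091 to 5119 bases in the controls and 6021 to 6050 bases with overexpression. Mitochondrial transcripts took 1.99% to 2.2% and 1.74% to 1.8% of counts. Of 12 keratinocyte markers 11 were tested, 5 higher and 6 lower, with a summed level of 1860 to 1870 CPM in the controls against 1470 to 1490 CPM with overexpression. Epcam alone, at 832 CPM in the controls and 315 CPM with overexpression, fell by more than the sum did, while Cdh1 rose from 382 to 532 CPM and Dsp from 145 to 212 CPM. Krt15 had 343, 310 and 352 counts in the controls and 0 in each overexpression library. Krt5, a defining basal keratin, was at 0 in all 6 libraries, and Trp63 was near 0 as given above. In the GENCODE M21 annotation Cdkn2a and Pmaip1 share no exonic bases with another gene. Krt5 shares 5.87% of its exonic bases with a microRNA gene on the opposite strand. Whether the cells lack Krt5, Cdkn2a and Pmaip1 or their reads were lost in counting in some other way was not tested. Fibroblast markers summed to 43.6 to 52.4 CPM and 16.7 to 17.3 CPM, with 2 of 8 tested and Lum and Dpt at 0; most of both sums was Pdgfra, at 44.9 and 16.4 CPM. Melanocyte markers summed to 8.05 to 9.78 and 7.33 to 8.22 CPM, with 2 of 8 tested and Tyr and Kit at 0. Within that list both tested genes were called lower, Mitf from 7.02 to 4.92 CPM and Pmel from 1.86 to 0.845 CPM. Pmel was not called with the length trend removed (edgeR adjusted p = 0.0679). Tyrp1 and Dct, not tested, went the other way. Tyrp1 had 0 counts in every control and 7, 18 and 15 with overexpression, and Dct 0 in every control and 10, 8 and 13 with overexpression. Immune markers summed to 18.7 to 21.7 and 4.86 to 6.8 CPM, with 2 of 9 tested and Cd3e and Adgre1 among those at 0; most of both sums was Cd68, at 19.1 and 4.54 CPM, and Csf1r stood at 0.818 and 0.811 CPM. Endothelial markers summed to under 1 CPM in every library, with 0 of 6 tested. The part of these measures in the results was not tested, except that the length alternative is given beside the genes it moved.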

How the data were processed

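Polyadenylated RNA of PAM212 cells was sequenced, per the labels. The submitters' processing notes name HISAT2, HTSeq and DESeq without versions and the mouse build mm9, but the coordinates of all 10 genes in the table equal those of GENCODE M21 on GRCm38, which were used. The file headers name the deposited values only as read count and fpkm. They do not state that the counts are raw or how FPKM was scaled. The counts were used as raw, and FPKM was read, by its name, as scaled by gene length and library size. The gene lengths are also deposited. The authors' deposited comparison holds the fold change as a ratio, its log2 value and an adjusted p-value. Read statistics were not used.

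Counts were tested with the robust quasi-likelihood F test of edgeR 4.0.16 in R 4.3.3 over all genes kept by filterByExpr (minimum count 10), TMM scaling, with Benjamini-Hochberg adjustment over 11809 genes and a threshold of 0.05. The SE is the size of the log2 fold change divided by the square root of F. The fit was tested only on simulated data in which most genes were unchanged. In these libraries 86.0% of tested genes were called, so that test does not cover their setting. Alternatives used DESeq2 1.42.0, limma 3.58.1 on log2(FPKM + 1) and log2(FPKM + 0.1), upper quartile or no scaling, no filter, a 1.5-fold minimum, a replicate block, per-library offsets from a lowess trend on log gene length, and leaving out each library. The 10 genes and the lists were chosen with earlier results of these data known. The genes named besides the 10 are a list set down with the design and, by a rule set down with it, the 3 genes with the smallest mean absolute difference from Trp53 in centred log2 CPM. Rchy1, Ppp1r13l, Tnfrsf10b, Apaf1, Ei24, Rps27l, Phlda2, Trp53bp1, Cop1, Triap1, Gpx1, Trp53inp2, E230016M11Rik and the single markers of cell types were named after their values were seen. The same holds for Kat5. Symbols were matched to RefSeq windows by name, and Trp53inp1 had none. Counting intervals and floors cover counting error only. Replicate pairs differed beyond sampling noise (chi-square per degree of freedom 1.87 to 2.64), so no library was counted as a duplicate. The spread within groups was still small, with a common biological coefficient of variation of 2.93% in the edgeR fit. Neither value can tell separate cultures from repeated libraries of the same culture.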

Additional observations from a re-analysis of the deposited data

How the results depend on the processing

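The 4 higher and 6 lower calls among the 10 genes went to 3 and 4 against a 1.5-fold minimum and to 4 and 5 with the length trend removed; leaving out 1 library gave 4 higher and 5 to 6 lower, and every other alternative kept 4 and 6. No member changed direction in any of the 15 alternatives. The calls lost were those of Mdm2 and Sesn1 against the 1.5-fold minimum and those of Btg2 given in the report. Same-numbered libraries did not visibly deviate together (correlations from -0.0309 to -0.00307 over 3 pairs). A weak pairing could not be seen this way, and the sample titles give only numbers. The replicate block left 4 higher and 6 lower and changed no call on a member. In the 6 wider lists, chosen for this check after the data were seen, 44 higher and 34 lower went to 38 and 39 with upper quartile scaling, which moved the median of all tested genes by -0.23 and the share of higher among called genes from 49% to 38.6%, and to 30 and 26 against the 1.5-fold minimum. Leaving out 1 library gave 43 to 45 higher and 33 to 34 lower.

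The direction of Mdm4 turned to -0.19 with upper quartile scaling, -0.05 without scaling beyond totals, -0.04 and -0.05 in limma with a pseudocount of 1 and 0.1, and -0.53 with the length trend removed, of which the first and last were called. Ppm1d turned to -0.18, -0.04, -0.04 and -0.05 under the first 4 of these, Chek2 to -0.07 with upper quartile scaling, and Bax to 0.34 with the length trend removed. The cause was not tested. Families with a lower share in every overexpression library numbered 3 to 4 with 1 library left out. The difference in share of Plk2 turned to -0.00942 percentage points without control replicate 3, and that of Btg2 to 0.0173 without overexpression replicate 3; both shares overlapped between groups to begin with. Leaving out 1 library gave -0.00942 to 1.19 points for Plk2 and -0.294 to 0.0173 for Btg2. Low counts limit the precision of Btg2 and Trp63.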
